A study of Mus musculus with 18 samples.

Results

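The transcripts described here encode 9 regulators of messenger RNA decay that act on cytokine mRNAs, namely *Zfp36*, *Zfp36l1*, *Zfp36l2*, *Zc3h12a*, *Zc3h12d*, *Rc3h1*, *Rc3h2*, *Btg1* and *Btg2*. They were listed by name, with no threshold on a measured value, and are 9 of the 37991 genes counted in each library. All 9 were abundant enough to be tested. RNA-seq was performed on splenic CD4 T cells, purified by enrichment, of Tg4-H2u mice, aged 6 to 12 weeks, which carry a transgenic T cell receptor specific for a myelin basic protein peptide on the H-2u background, so that most of their CD4 T cells see 1 antigen (Ag). The tolerized groups came from mice given 7 subcutaneous injections of the MBP Ac1-9[4Y] peptide in escalating doses, 1 every 3 to 4 days, and the naive groups from mice given PBS on the same schedule. N0 and T0 are naive and tolerized cells from mice whose last injection was PBS. NAg and TAg are the same kinds of cells from mice that received 80 μg of the peptide 2 h before harvest. NPI and TPI are naive and tolerized cells cultured for 2 h with 20 ng/ml PMA, an activator of protein kinase C, and 2 μM of the calcium ionophore A23187, together called PI, which act downstream of the T cell receptor. Each of these 6 groups had 3 biological replicates. The PI cells were cultured and the N0 and T0 cells were taken directly from mice, so that PI and culture cannot be told apart in the comparisons below.

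The life of a cytokine mRNA in T cells is set largely by elements in its 3′ untranslated region (UTR). Proteins of the ZFP36 family bind AU-rich elements and recruit the CCR4-NOT deadenylase, Regnase-1 (encoded by *Zc3h12a*) is an endonuclease that cuts stem-loops in such mRNAs, and the Roquins (*Rc3h1* and *Rc3h2*) bind stem-loops and also recruit deadenylases. *Zc3h12d* encodes Regnase-4, a further member of the Regnase family, and BTG1 and BTG2 bridge the CAF1 deadenylases to poly(A)-binding protein and are known for keeping resting T cells quiescent. *Zfp36* is an immediate early gene whose own mRNA is AU-rich.

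The elements that the ZFP36 proteins recognise are shown first, because several regulators carry them in their own transcripts. The sense strand of the longest 3′ UTR annotated for each gene (build NCBIM37) was searched for the heptamer TATTTAT, which is the core of the longer nonamer TTATTTATT, so that each nonamer also counts as a heptamer. The heptamer was present in 24.6% and the nonamer in 6.7% of 19394 coding genes with a 3′ UTR of at least 50 bases. Of the 9 regulators, 6 held the heptamer. *Zfp36*, *Zfp36l1*, *Zfp36l2* and *Rc3h2* had 3 copies each, *Rc3h1* had 2 and *Btg2* had 1, whereas *Zc3h12a*, *Zc3h12d* and *Btg1* had none. The 3 genes of the ZFP36 family and both Roquin genes each held 1 nonamer. The searched UTRs differ in length, from 774 bases in *Zfp36* to 7181 in *Rc3h1*, and a longer one has more room for a match. Among 12 transcripts known as targets of these proteins, 6 held the heptamer, with 9 copies in *Csf2*, 8 in *Tnf*, 4 each in *Ifng* and *Il10*, 3 in *Il2* and 1 in *Irf4*. The searched UTRs of the targets ranged from 101 bases in *Il3* to 3260 in *Irf4*. Those of *Il3* and *Tnfrsf4*, the latter of 180 bases, held no heptamer but had little room for a match. The windows below are the densest of 30 bases in each 3′ UTR, 5′ to 3′ on the coding strand, all on the minus strand, with the heptamers in capitals.
Tnf, chr17:35336622-35336651: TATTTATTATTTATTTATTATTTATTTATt
Csf2, chr11:54060826-54060855: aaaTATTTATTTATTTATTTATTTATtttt
Il2, chr3:37019826-37019855: aaacTATTTATctgaaatTATTTATtatat
Zfp36, chr7:29161977-29162006: ccttTATTTATgacgacttTATTTATtgta
Zfp36l1, chr12:81209408-81209437: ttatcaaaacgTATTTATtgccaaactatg
Zfp36l2, chr17:84584253-84584282: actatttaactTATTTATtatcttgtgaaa
The windows of *Tnf* and *Csf2* each hold 5 copies, which overlap in a chain in *Csf2* and in part in *Tnf*, those of *Il2* and *Zfp36* hold 2 separate copies, and those of *Zfp36l1* and *Zfp36l2* hold 1.

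The 9 genes lie on 7 chromosomes of NCBIM37. *Zfp36* is at chr7:29161803-29164274 on the minus strand, *Zfp36l1* at chr12:81208747-81214000 on the minus strand and *Zfp36l2* at chr17:84583271-84587287 on the minus strand. *Zc3h12a* is at chr4:124795667-124805084 on the minus strand and *Zc3h12d* at chr10:7552268-7590195 on the plus strand. *Rc3h1* is at chr1:162836549-162905109 on the plus strand, *Rc3h2* at chr2:37225589-37278423 on the minus strand, *Btg1* at chr10:96079635-96085447 on the plus strand and *Btg2* at chr1:135971747-135975697 on the minus strand. Of the exonic sequence of *Zfp36l1*, 1672 of 2984 bases are shared with the antisense noncoding gene *Gm17591*. The strand setting of the counting is not given in the sources used here, so that reads from the shared sequence may not have been told apart. The reads assigned to *Gm17591* came to between 0.174% and 0.806% of those assigned to *Zfp36l1* in the same library. Reads left uncounted would not show in this share. No other regulator shared exonic sequence with another annotated gene.

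Library totals ranged from 10758571 to 24119489 counts, with the highest totals in NPI and TPI, and 17240 genes were tested. All 7 T cell marker genes, including *Cd3e* and *Cd4*, were detected in every group. Their summed normalized counts had medians of 29655 in N0, 25479 in T0, 15306 in NAg, 21135 in TAg, 49397 in NPI and 54384 in TPI. In 9 libraries, including all 6 of NPI and TPI but none of N0 or NAg, more than 1000 reads came from Y-linked genes, so that sex and treatment were not balanced. T0 replicates 1 and 2 and TAg replicate 3 were among them, whereas T0 replicate 3 and TAg replicates 1 and 2 were not. Only T0 and TAg thus held both kinds of library, and a model with sex as a covariate took its sex term from these tolerized cells. Markers of other spleen cells differed between the groups. The summed normalized counts of 13 neutrophil markers were 193 to 377 in N0, 2614 to 4012 in T0, 269 to 570 in NAg, 2933 to 5538 in TAg, 177 to 269 in NPI and 530 to 852 in TPI and came to at most 0.0429% of a library. In NPI 3 of the 13 were at 0 in all libraries, and in the other groups none was. The 9 macrophage markers summed to 456 to 649 in N0, 1305 to 1675 in T0, 513 to 1515 in NAg, 953 to 1423 in TAg, 320 to 464 in NPI and 621 to 792 in TPI. These sums did not stand for the whole list. At an adjusted p under 0.05, 1 of the 9 was higher and 0 were lower in T0 than in N0 (8.42% and 12% of all tested genes). Their median log2 fold change was -0.06. In TAg against NAg, 1 was higher and 6 were lower (20.9% and 18.5%), with a median of -0.96. The 8 erythroid markers summed to 32.4 to 208 in N0, 236 to 2273 in T0, 91.6 to 344 in NAg, 90.6 to 1327 in TAg, 14.4 to 70.7 in NPI and 233 to 396 in TPI. By the same threshold 1 of the 8 was higher and 0 were lower in T0 than in N0 (8.42% and 12% of all tested genes). The counts were the same in TAg against NAg (20.9% and 18.5%). In TPI against NPI they were 0 and 0 (18.2% and 19.7%). Over all libraries the 6 B cell markers summed to 315 to 2469, the 5 dendritic cell markers to 356 to 1085 and the 4 CD8/NK markers to 119 to 932. A model that included a score for erythroid and one for myeloid markers is given below where it ended a call, and the part of these cells in the differences was not tested otherwise. In bulk RNA, a change in the proportion of a cell type and a change in RNA per cell cannot be told apart.

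Normalized counts are counts scaled for library size, and levels of different genes are compared only after division by the length of exonic sequence in kb. In N0, *Btg1* was the most abundant of the 9 per kb at 4058 ± 228 (SD, n = 3), followed by *Zfp36l2* at 2314 ± 1070, *Zfp36l1* at 1228 ± 27.6, *Btg2* at 1228 ± 19.6 and *Zfp36* at 1014 ± 125. *Rc3h1*, *Rc3h2*, *Zc3h12a* and *Zc3h12d* lay between 207 and 318 per kb on the same scale. In NPI, *Zfp36* led at 18878 ± 621 per kb, followed by *Btg2* at 10339 ± 740 and *Zfp36l1* at 9880 ± 564. In TPI, *Zfp36l1* led at 16368 ± 1791 per kb, ahead of *Zfp36* at 13764 ± 1639. The plot of the members by library gives the level of each gene in all 18 libraries.

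**Figure D1:**
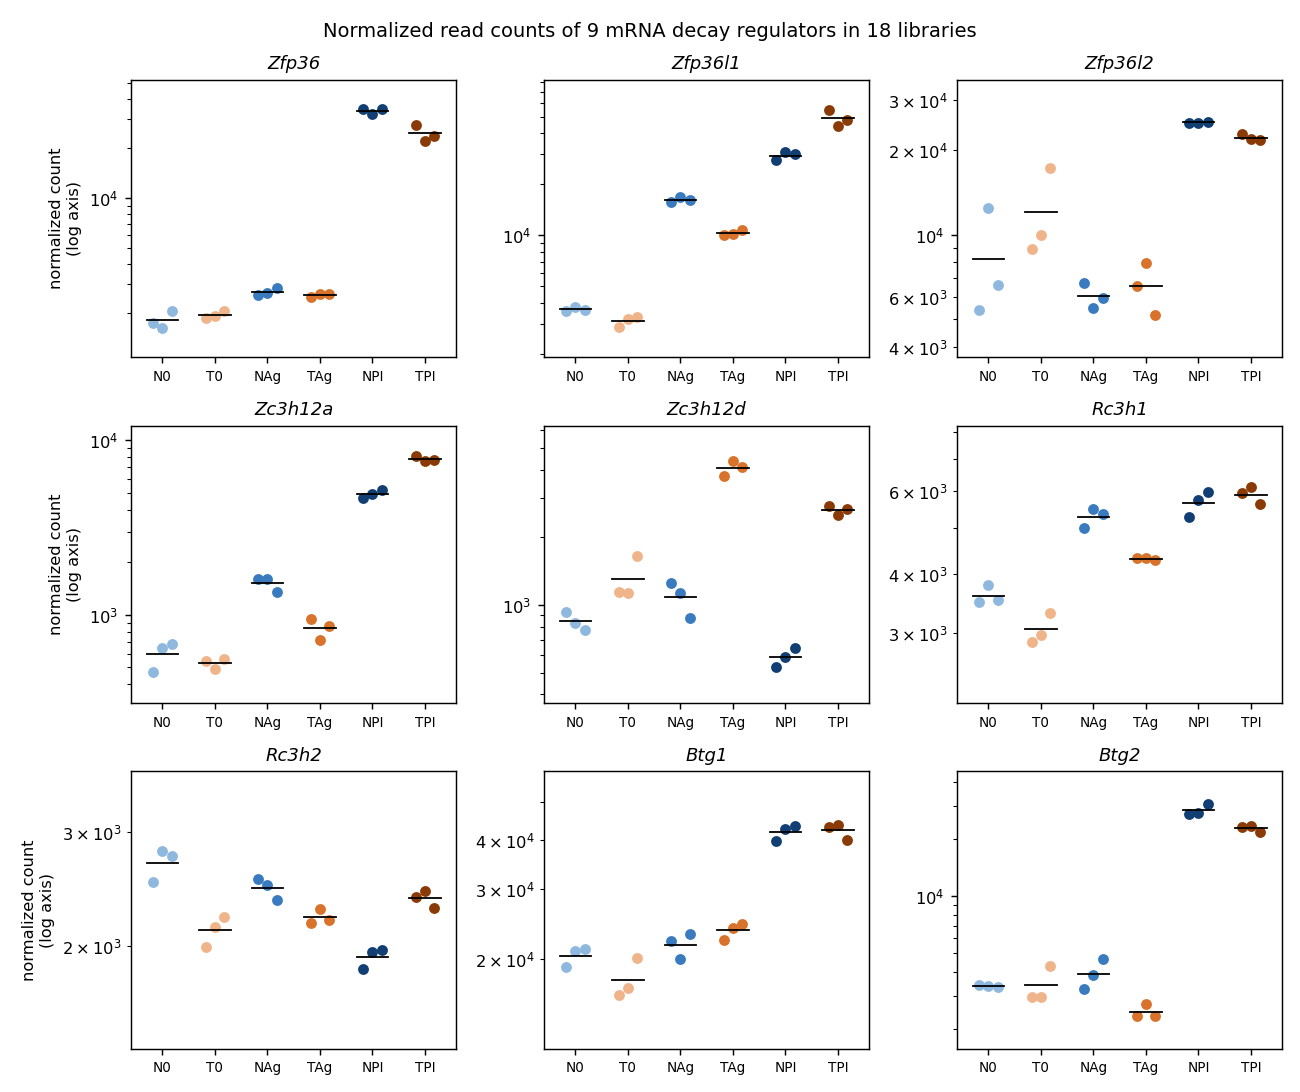
Normalized read counts (log axis) of the 9 regulators in the 18 libraries; each point is 1 library, each horizontal line the mean of 3 replicates, blue for naive and orange for tolerized groups. *Zfp36* lies between 1640 and 2866 without PI and between 22215 and 34488 with it, whereas *Zc3h12d* is highest in TAg and TPI.

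A gene was called where the adjusted p (Benjamini-Hochberg over all 17240 genes, edgeR quasi-likelihood test) was under 0.05. After Ag, 5 of the 9 regulators rose in naive cells (NAg against N0) and none fell, where 65.5% of all tested genes were called, 32.1% higher and 33.4% lower. In tolerized cells (TAg against T0) 6 rose and 2 fell, where 59.8% of all genes were called, 29.9% higher and 29.8% lower. With PI, 7 rose and 2 fell in naive cells (NPI against N0), where 61.4% of all genes were called, 28.6% higher and 32.7% lower. In tolerized cells (TPI against T0) all 9 rose, where 68.3% were called, 32% higher and 36.3% lower. The replicates of the compared groups did not overlap for 4, 8, 9 and 9 of the regulators in these comparisons, beside 68.1%, 64.5%, 66.4% and 72.5% of all tested genes. Called changes of at least 2-fold were found in 2 regulators in NAg against N0, 2 in TAg against T0, 6 in NPI against N0 and 6 in TPI against T0. The same rule held for 42%, 32.7%, 31.8% and 40.6% of all genes. Calls were thus common among all genes, and a share of called regulators near these values is not particular to them. The median log2 fold change of the 9 was 0.36 in NAg against N0 and 0.42 in TAg against T0, beside 0 and -0.05 over all tested genes. For PI it was 1.62 in naive and 1.26 in tolerized cells, beside -0.06 and -0.10 over all genes. NAg and NPI were both compared with N0, and TAg and TPI both with T0, so the comparisons within a cell state share their controls.

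Between tolerized and naive cells at rest (T0 against N0), 1 regulator was higher and 3 were lower, all by less than 2-fold, where 20.4% of all genes were called, 8.42% higher and 12% lower. After Ag (TAg against NAg), 1 was higher and 4 were lower, beside 39.4% of all genes, 20.9% higher and 18.5% lower. After PI (TPI against NPI), 4 were higher and 1 was lower, beside 37.9%, 18.2% higher and 19.7% lower. A called difference of at least 2-fold was found for no regulator at rest and for *Zc3h12d* alone after Ag and after PI, beside 6.18%, 10.8% and 9.34% of all genes. *Zc3h12d* was the gene higher in tolerized cells in each of these 3 comparisons. Once the erythroid and myeloid scores entered the model, no regulator was called in T0 against N0, only *Zc3h12d* remained in TAg against NAg, and 4 remained in TPI against NPI. Standard errors were larger in that model, at 0.17 instead of 0.06 for *Rc3h2* at rest and 0.29 instead of 0.14 for *Btg2* after Ag. These 2 estimates did not shrink (from -0.34 to -0.41 and from -0.67 to -0.70), whereas that of *Zc3h12d* at rest did (from 0.63 to 0.23). Neutrophil sums of naive and tolerized libraries did not overlap at rest, after Ag or after PI. Macrophage and erythroid sums were also apart at rest and after PI but overlapped after Ag. Scores and cell state were thus hard to separate. The replicates of the 2 groups did not overlap for 4 of the 9 genes at rest, 6 after Ag and 7 after PI, beside 35%, 47.7% and 50.5% of all tested genes.

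**Figure D2:**
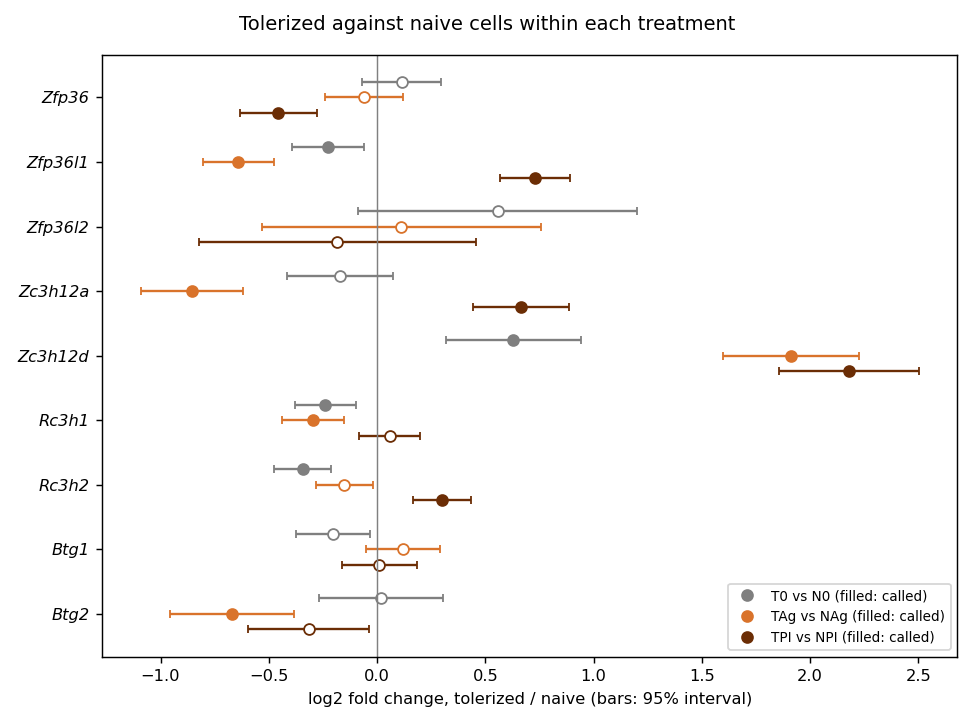
Log2 fold changes of tolerized against naive cells at rest (grey), after Ag (orange) and after PI (brown) for each regulator, with 95% intervals from the edgeR model; filled points were called at an adjusted p under 0.05. *Zc3h12d* lies to the right of 0 in all 3, whereas *Zfp36l1* and *Zc3h12a* lie to the left after Ag and to the right after PI.

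*Zfp36*, which encodes tristetraprolin, responded weakly to Ag and strongly to PI. In the untreated libraries its normalized counts were 1739, 1640 and 2070 in N0 and 1885, 1939 and 2073 in T0. After Ag they were 2573, 2669 and 2866 in NAg and 2523, 2634 and 2613 in TAg. With PI they reached 34488, 32544 and 34453 in NPI and 27920, 22215 and 23860 in TPI. Both Ag groups lay above both untreated groups, naive and tolerized libraries overlapped at rest and after Ag, and all NPI libraries lay above all TPI libraries. The rise with Ag was 1.49-fold in naive cells (log2 fold change 0.57, SE 0.09, adjusted p = 3.06e-06) and 1.32-fold in tolerized cells (0.40, SE 0.09, adjusted p = 0.000345). With PI the rise was 18.6-fold in naive cells (4.22, SE 0.10, adjusted p = 1.55e-20) and 12.6-fold in tolerized cells (3.65, SE 0.10, adjusted p = 4.73e-20). TPI was 1.37-fold lower than NPI (-0.46, SE 0.09, adjusted p = 0.000147), a difference that was not called with marker scores in the model (-0.32, adjusted p = 0.112).

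*Zfp36l1*, known for holding developing lymphocytes in quiescence, had the largest response to Ag among the 9 genes in naive cells. In tolerized cells its log2 fold change was close to that of *Zc3h12d* (1.72 and 1.64). Without T0 replicate 3 the order was reversed (1.73 and 1.82). Untreated libraries had 3595, 3756 and 3646 normalized counts of *Zfp36l1* in N0 and 2882, 3218 and 3298 in T0. After Ag there were 15602, 16748 and 16082 in NAg and 10034, 10207 and 10809 in TAg. With PI there were 27629, 30914 and 29898 in NPI and 54680, 44192 and 47653 in TPI. No 2 of the 6 groups overlapped, and the order of naive and tolerized cells was opposite after Ag and after PI. Ag raised *Zfp36l1* 4.40-fold in naive cells (log2 fold change 2.14, SE 0.08, adjusted p = 3.54e-17) and 3.30-fold in tolerized cells (1.72, SE 0.08, adjusted p = 2.89e-15). PI raised it 8.04-fold in naive cells (3.01, SE 0.08, adjusted p = 4.93e-19) and 15.6-fold in tolerized cells (3.96, SE 0.09, adjusted p = 3.52e-21). Tolerized cells held 1.56-fold less after Ag (-0.64, SE 0.08, adjusted p = 8.32e-07) and 1.66-fold more after PI (0.73, SE 0.08, adjusted p = 1.03e-07). With marker scores as covariates the difference after Ag was -0.54 (adjusted p = 0.0655) and that after PI was 0.83 (adjusted p = 6.16e-05). The small difference at rest (-0.23, SE 0.08, adjusted p = 0.0454) was lost without any 1 of 5 of the 6 libraries, T0 replicate 3 being the exception (adjusted p 0.0501 to 0.184).

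*Zfp36l2*, which acts together with *Zfp36l1* in lymphocyte development, varied most between replicates at rest. The untreated libraries had 5404, 12473 and 6631 normalized counts in N0 and 8870, 9981 and 17192 in T0. After Ag the counts were 6739, 5502 and 5947 in NAg and 6547, 7952 and 5170 in TAg, and with PI they were 24948, 24985 and 25197 in NPI and 22785, 21802 and 21586 in TPI. N0 replicate 2 and T0 replicate 3 stood above the other untreated libraries of their group, and both PI groups were above all others with little spread. T0 replicate 3 had 7 Y-linked reads, against 6563 and 6320 in T0 replicates 1 and 2. N0 replicate 2 had 8, and N0 replicates 1 and 3 had 10 and 15. PI raised the gene 3.07-fold in naive cells (log2 fold change 1.62, SE 0.30, adjusted p = 0.00041) and 1.84-fold in tolerized cells (0.88, SE 0.30, adjusted p = 0.0189). The latter was lost without T0 replicate 1 (0.67, adjusted p = 0.0907) or replicate 2 (0.73, adjusted p = 0.0808), and with marker scores as covariates (1.57, adjusted p = 0.125). After Ag, *Zfp36l2* fell by 0.87 on the log2 scale in tolerized cells (SE 0.30, adjusted p = 0.0222), but by 0.55 without T0 replicate 3 (adjusted p = 0.112). The call was also lost without TAg replicate 1 (adjusted p = 0.0509) or replicate 3 (adjusted p = 0.0856). In naive cells the estimate with Ag was -0.43 (SE 0.30, adjusted p = 0.224). No difference between naive and tolerized cells passed the test in the main model. After PI the estimate was -0.18 (SE 0.29, adjusted p = 0.684), although all NPI libraries lay above all TPI libraries. It was called in a fit of these 2 groups alone (-0.16, SE 0.06, adjusted p = 0.0438). At rest the estimate was 0.56 with a 95% interval from -0.09 to 1.20, and without N0 replicate 2 it was 0.99 (adjusted p = 0.0231). With sex as a covariate it was 0.95 (adjusted p = 0.054).

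Summed over the ZFP36 family, the level per kb was 4556 ± 1034 in N0 and 5550 ± 1389 in T0, 8636 ± 54.2 in NAg and 6771 ± 325 in TAg, and 35852 ± 461 in NPI and 36380 ± 3590 in TPI. NPI and TPI thus overlapped in their sum while differing in composition. *Zfp36l2* made up 49.1% of the sum in N0 and 60.1% in T0. *Zfp36l1* made up 62.6% in NAg and 51.3% in TAg. *Zfp36* made up 52.7% in NPI and 37.8% in TPI, where *Zfp36l1* took 45.0%. On average, the leading member went from *Zfp36l2* at rest to *Zfp36l1* after Ag in both cell states. After PI it was *Zfp36* in naive cells and still *Zfp36l1* in tolerized cells. The per kb ranks and shares of *Zfp36l1*, here and above, may be affected by the sequence it shares with *Gm17591*, as the strand setting is unknown.

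**Figure D3:**
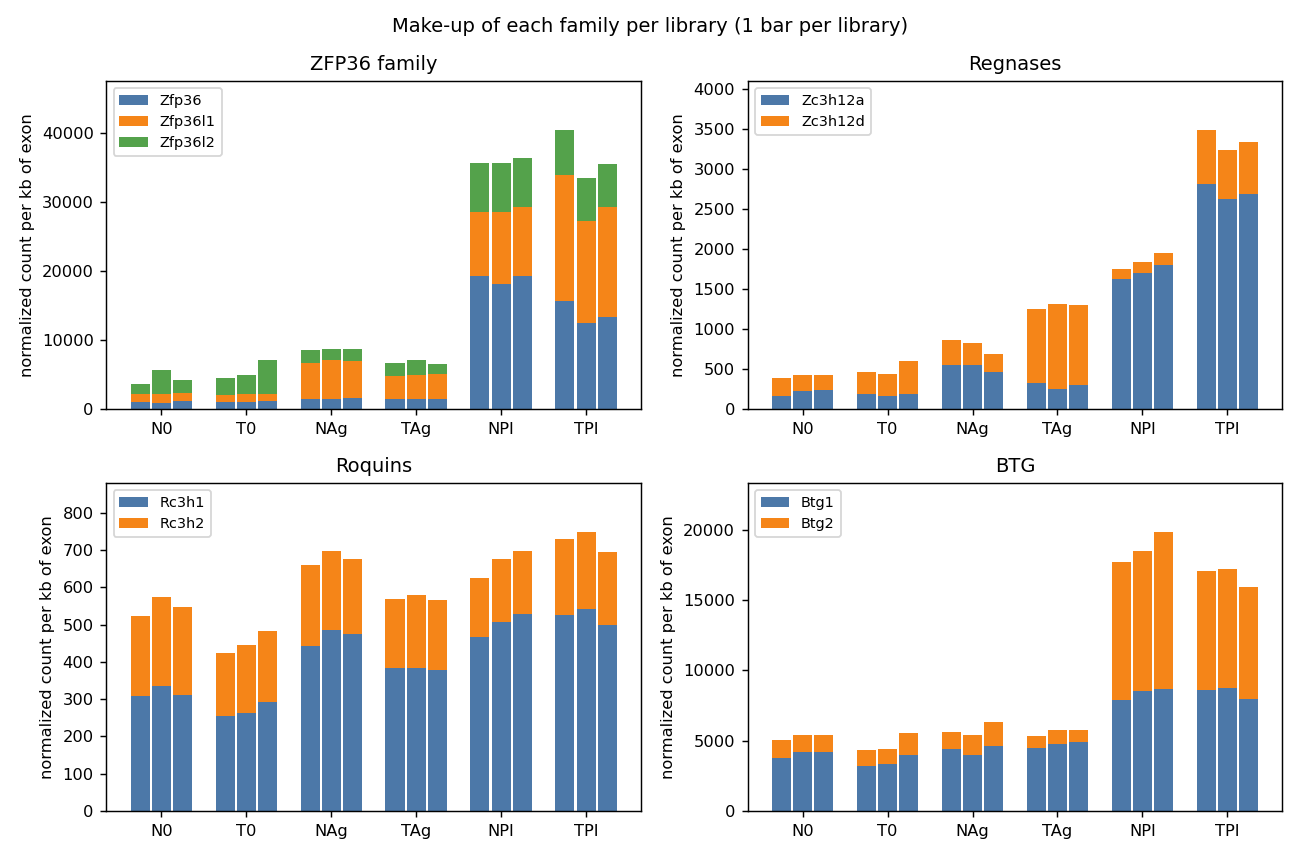
Normalized counts per kb of exonic sequence for the members of each family, stacked, with 1 bar for each of the 18 libraries on a linear axis from 0. In the ZFP36 family the NPI and TPI bars are of similar height but TPI holds more *Zfp36l1*, and among the Regnases *Zc3h12d* makes up most of each TAg bar and little of each NPI bar.

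*Zc3h12a*, the gene of Regnase-1, had normalized counts of 469, 645 and 681 in N0 and 540, 490 and 562 in T0. After Ag they were 1608, 1598 and 1358 in NAg and 945, 718 and 861 in TAg. With PI they were 4695, 4904 and 5186 in NPI and 8106, 7586 and 7756 in TPI. N0 and T0 overlapped, all NAg libraries lay above all TAg libraries, and all TPI libraries above all NPI libraries. Ag raised the gene 2.54-fold in naive cells (log2 fold change 1.35, SE 0.12, adjusted p = 1.33e-09) and 1.59-fold in tolerized cells (0.67, SE 0.12, adjusted p = 4.22e-05). PI raised it 8.24-fold in naive cells (3.04, SE 0.12, adjusted p = 1.01e-14) and 14.7-fold in tolerized cells (3.88, SE 0.12, adjusted p = 1.67e-16). Tolerized cells held 1.81-fold less after Ag (-0.85, SE 0.11, adjusted p = 5.82e-06) and 1.59-fold more after PI (0.67, SE 0.11, adjusted p = 4.67e-05). With marker scores as covariates the first was -0.70 (adjusted p = 0.116) and the second 0.75 (adjusted p = 0.01). At rest the estimate of -0.17 (adjusted p = 0.335) became a call without N0 replicate 1 (-0.33, adjusted p = 0.0229).

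*Zc3h12d*, the gene of Regnase-4, was higher in tolerized cells in each condition. Its normalized counts were 928, 831 and 776 in N0 and 1137, 1128 and 1660 in T0. After Ag they were 1251, 1136 and 875 in NAg and 3769, 4359 and 4129 in TAg. With PI they were 528, 584 and 642 in NPI and 2770, 2505 and 2676 in TPI. TAg and TPI were the 2 highest groups and NPI the lowest, and none of these 3 overlapped with another group. *Zc3h12d* was 3.76-fold higher in TAg than in NAg (log2 fold change 1.91, SE 0.15, adjusted p = 6.69e-08) and 4.53-fold higher in TPI than in NPI (2.18, SE 0.15, adjusted p = 1.48e-08). Leaving out any 1 library gave 1.77 to 2.03 and 2.12 to 2.25 for these, and the model with marker scores gave 1.58 (adjusted p = 0.0102) and 2.06 (adjusted p = 4.06e-05). At rest it was 1.55-fold higher in T0 (0.63, SE 0.15, adjusted p = 0.00657), which became 0.41 without T0 replicate 3 (adjusted p = 0.0178) and 0.23 with marker scores (adjusted p = 0.947). In naive cells the stimuli moved it in opposite directions. Ag raised it 1.29-fold in naive cells (0.36, SE 0.15, adjusted p = 0.0418), a call that was lost without any 1 of 5 of the 6 libraries, NAg replicate 3 being the exception (adjusted p 0.0647 to 0.213), and with marker scores (0.24, adjusted p = 0.281), and 3.12-fold in tolerized cells (1.64, SE 0.15, adjusted p = 3.9e-08). With PI it fell by 0.53 on the log2 scale in naive cells (SE 0.15, adjusted p = 0.0062) and rose 2.03-fold in tolerized cells (1.02, SE 0.14, adjusted p = 9.22e-06). The fall in naive cells was -0.27 with sex as a covariate (adjusted p = 0.255) and -0.32 with marker scores (adjusted p = 0.341). Per kb, *Zc3h12d* made up 50.1% of the 2 Regnase transcripts in N0 and 63.0% in T0, 33.3% in NAg and 77.3% in TAg, and 7.70% in NPI and 19.3% in TPI.

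The Roquin genes, whose proteins act on costimulatory receptor and cytokine mRNAs, moved within a narrow range. *Rc3h1* had 3496, 3784 and 3520 normalized counts in N0 and 2876, 2967 and 3314 in T0. It had 5011, 5494 and 5360 in NAg and 4324, 4331 and 4276 in TAg. With PI it had 5272, 5733 and 5978 in NPI and 5929, 6113 and 5637 in TPI. Each stimulated group lay above both untreated groups, and NPI and TPI overlapped. The rise with Ag was 1.47-fold in naive cells (log2 fold change 0.55, SE 0.07, adjusted p = 1.16e-07) and 1.41-fold in tolerized cells (0.50, SE 0.07, adjusted p = 8.25e-07). The rise with PI was 1.57-fold (0.65, SE 0.07, adjusted p = 1.23e-08) and 1.93-fold (0.95, SE 0.07, adjusted p = 1.18e-11). *Rc3h1* was 1.18-fold lower in T0 than in N0 (-0.24, SE 0.07, adjusted p = 0.0162) and 1.23-fold lower in TAg than in NAg (-0.30, SE 0.07, adjusted p = 0.00138). The call at rest was lost without N0 replicate 2, T0 replicate 1 or T0 replicate 2 (adjusted p 0.0524 to 0.071), with sex as a covariate (-0.17, adjusted p = 0.19) and in a fit of these 2 groups alone (-0.16, adjusted p = 0.0838). With marker scores as covariates the estimates were -0.20 at rest (SE 0.18, adjusted p = 0.851) and -0.30 after Ag (SE 0.14, adjusted p = 0.249), and neither was called. After PI the estimate was 0.06 with a 95% interval from -0.08 to 0.20.

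*Rc3h2* had 2505, 2798 and 2755 normalized counts in N0 and 1994, 2139 and 2215 in T0. It had 2540, 2483 and 2350 in NAg and 2170, 2278 and 2195 in TAg, and 1843, 1961 and 1969 in NPI and 2383, 2431 and 2288 in TPI. N0 had the highest mean but overlapped with NAg, and all NPI libraries lay below all others. T0 was 1.27-fold lower than N0 (log2 fold change -0.34, SE 0.06, adjusted p = 5e-04), and with marker scores the estimate was -0.41 (SE 0.17, adjusted p = 0.518). Ag changed it in neither cell state by the test (-0.13, adjusted p = 0.0846, and 0.07, adjusted p = 0.402). In naive cells it was called without N0 replicate 1 (-0.23, adjusted p = 0.00627) and in a fit of the 2 groups alone (-0.18, adjusted p = 0.0367). PI lowered it in naive cells (-0.48, SE 0.06, adjusted p = 6.02e-07) and raised it slightly in tolerized cells (0.16, SE 0.06, adjusted p = 0.0294), a call that was lost without T0 replicate 1 (0.09, adjusted p = 0.272), T0 replicate 2 (adjusted p = 0.0964) or TPI replicate 2 (adjusted p = 0.0941), and with marker scores (0.29, adjusted p = 0.258). TPI was 1.23-fold above NPI (0.30, SE 0.06, adjusted p = 0.000654). The difference after Ag was -0.15 (adjusted p = 0.0687) in the main model and was called with DESeq2 (-0.19, adjusted p = 0.00997).

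Of the 2 quiescence genes, *Btg1* was the more abundant per kb except in NPI. Its normalized counts were 19019, 20873 and 21104 in N0 and 16137, 16797 and 20050 in T0. They were 22123, 19934 and 23075 in NAg and 22338, 23976 and 24466 in TAg, and 39724, 42699 and 43490 in NPI and 43101, 43687 and 40073 in TPI. Both PI groups stood above all other libraries and overlapped with each other. PI raised *Btg1* 2.06-fold in naive cells (log2 fold change 1.05, SE 0.08, adjusted p = 1.23e-10) and 2.39-fold in tolerized cells (1.26, SE 0.08, adjusted p = 2.74e-12). Ag raised it 1.34-fold in tolerized cells (0.42, SE 0.08, adjusted p = 0.00012), and in naive cells the estimate was 0.09 with a 95% interval from -0.08 to 0.27. No difference between tolerized and naive cells passed the test. After PI it was 0.01 with an interval from -0.16 to 0.18. At rest it was -0.20 (adjusted p = 0.0901) and was called without T0 replicate 3 (-0.31, adjusted p = 0.00547) or N0 replicate 1 (-0.25, adjusted p = 0.0478).

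*Btg2*, a known target of p53 and of growth signals, had 3423, 3367 and 3316 normalized counts in N0 and 2968, 2952 and 4318 in T0. After Ag it had 3234, 3837 and 4686 in NAg and 2356, 2710 and 2332 in TAg. With PI it had 26940, 27455 and 30684 in NPI and 23167, 23418 and 21736 in TPI. TAg was the lowest group and overlapped with no other, N0, T0 and NAg overlapped, and the PI groups stood far above. PI raised *Btg2* 8.42-fold in naive cells (log2 fold change 3.07, SE 0.14, adjusted p = 3.3e-12) and 6.67-fold in tolerized cells (2.74, SE 0.14, adjusted p = 7.85e-12). With Ag it fell by 0.47 on the log2 scale in tolerized cells (SE 0.14, adjusted p = 0.00617), or by 0.29 without T0 replicate 3 (adjusted p = 0.0189). In naive cells the estimate was 0.22 (adjusted p = 0.167), which was called without NAg replicate 1 (0.34, adjusted p = 0.0282). TAg was 1.59-fold below NAg (-0.67, SE 0.14, adjusted p = 0.000793), and with marker scores this was -0.70 (adjusted p = 0.184). After PI the difference was -0.32 (adjusted p = 0.0717) with a 95% interval from -0.60 to -0.04, and it was called with sex as a covariate (-0.32, adjusted p = 0.0215).

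Whether a response differed between the cell states was tested directly as an interaction. For Ag, the log2 fold change of *Zc3h12d* was higher in tolerized than in naive cells, and those of *Zfp36l1*, *Zc3h12a* and *Btg2* were lower, beside 21.7% of all genes called, 14.6% upward and 7.09% downward. At 2-fold or more only *Zc3h12d* was called for Ag and for PI, beside 6.44% and 4.07% of all genes. The differences of the 2 log2 fold changes were 1.28 (SE 0.21, adjusted p = 0.000301), -0.41 (SE 0.11, adjusted p = 0.00899), -0.68 (SE 0.16, adjusted p = 0.00456) and -0.69 (SE 0.19, adjusted p = 0.0154). For *Btg1* it was 0.32 (SE 0.12, adjusted p = 0.0532), and leaving out 1 of 3 libraries, N0 replicate 1, NAg replicate 3 or T0 replicate 3, made it a call (adjusted p 0.00256 to 0.0437). For *Rc3h2* it was 0.19 (SE 0.09, adjusted p = 0.144), and 0.26 without N0 replicate 1 (adjusted p = 0.0497). For PI, the log2 fold changes of *Zfp36l1* (0.96, SE 0.11, adjusted p = 1.41e-06), *Zc3h12a* (0.84, SE 0.16, adjusted p = 0.000676) and *Zc3h12d* (1.55, SE 0.21, adjusted p = 6.4e-05) were higher in tolerized cells. Those of *Rc3h2* (0.64, SE 0.09, adjusted p = 1.59e-05) and *Rc3h1* (0.30, SE 0.10, adjusted p = 0.0322) were also higher, whereas that of *Zfp36* was lower (-0.57, SE 0.12, adjusted p = 0.00152). For PI 20.2% of all genes were called, 12.7% upward and 7.52% downward. The estimate for *Zfp36l2* was -0.74 (adjusted p = 0.259) and was called without N0 replicate 2 (-1.16, adjusted p = 0.0299), as was that for *Btg1* without T0 replicate 3 (0.33, adjusted p = 0.0213) and that for *Btg2* with sex as a covariate (-0.54, adjusted p = 0.0298). The *Rc3h1* difference was lost without any 1 of 5 libraries, namely N0 replicate 2, T0 replicates 1 and 2, NPI replicate 1 and TPI replicate 2 (adjusted p 0.0529 to 0.084), with marker scores (0.33, SE 0.13, adjusted p = 0.131) and with sex as a covariate (0.23, SE 0.10, adjusted p = 0.14). With marker scores the *Zc3h12a* difference was 0.72 (adjusted p = 0.0743). *Zfp36l1* and *Zc3h12a* thus rose less with Ag and more with PI in tolerized than in naive cells. The sign itself differed for *Btg2* with Ag (0.22, not called, in naive and -0.47 in tolerized cells), for *Rc3h2* with PI (-0.48 and 0.16) and for *Zc3h12d* with PI (-0.53 and 1.02). The *Rc3h2* rise in tolerized cells and the *Zc3h12d* fall in naive cells each lost their call under some of the alternatives given above. Both interactions use N0 and T0, so that the Ag and PI differences share these libraries.

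**Figure D4:**
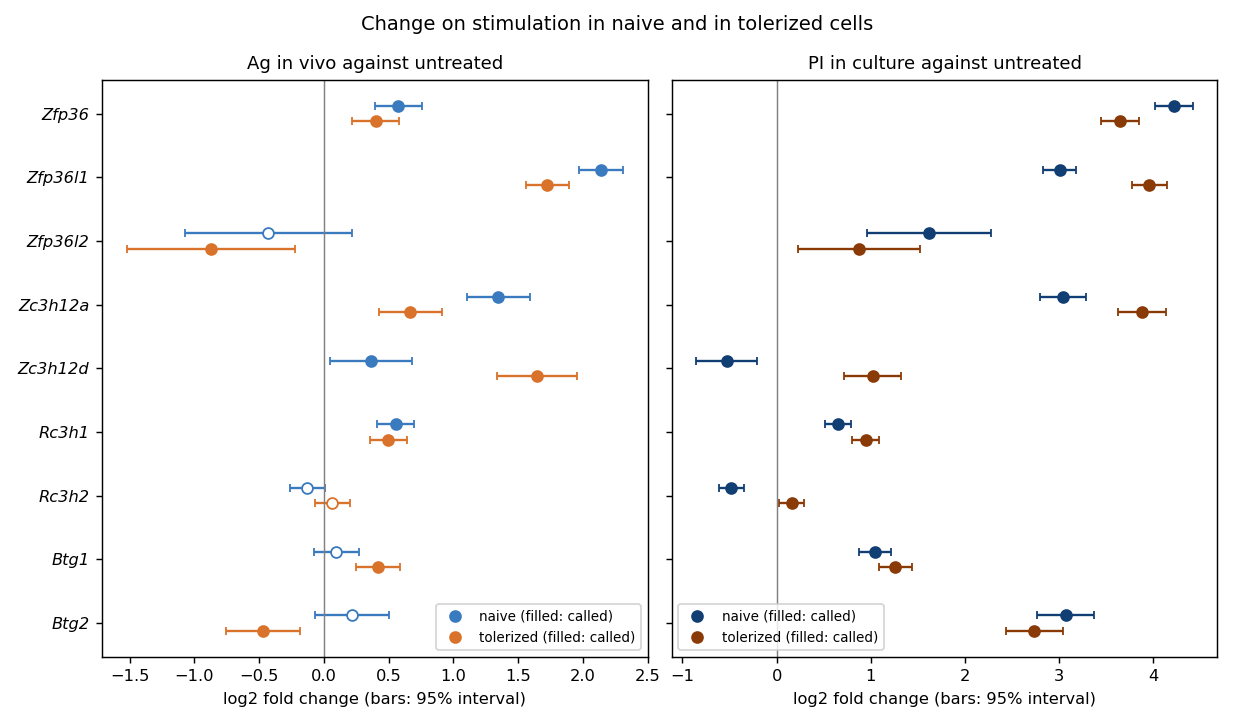
Log2 fold changes of each regulator after Ag in vivo (left) and after PI in culture (right) against untreated cells of the same state, blue for naive and orange (Ag) or brown (PI) for tolerized cells, with 95% intervals; filled points were called at an adjusted p under 0.05. The largest response to Ag in naive cells is that of *Zfp36l1* and the largest to PI in naive cells is that of *Zfp36*.

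The 250 bases before the start site were searched on both strands for AP-1 (TGANTCA), CRE (TGACGTCA), EGR (GCGNGGGCG), NF-kB (GGG, any 3 bases, T, any base, CC) and NFAT (TGGAAA) letters in promoters from RefSeq (GRCm38.p6), where 8 of the 9 genes were matched and *Zfp36l2* was not. Among 32851 promoters of the same length, 6.75% held the AP-1, 1.55% the CRE, 4.7% the EGR, 14.9% the NF-kB and 18.6% the NFAT letters. *Zfp36* and *Btg2*, the 2 regulators with little rise after Ag and over 6-fold rises with PI, were chosen for display after their values were seen, with *Zc3h12d* as the one that separated the cell states. Matches are in capitals, 5′ to 3′ on the coding strand.
Zfp36, chr7:28379229-28379478, minus strand: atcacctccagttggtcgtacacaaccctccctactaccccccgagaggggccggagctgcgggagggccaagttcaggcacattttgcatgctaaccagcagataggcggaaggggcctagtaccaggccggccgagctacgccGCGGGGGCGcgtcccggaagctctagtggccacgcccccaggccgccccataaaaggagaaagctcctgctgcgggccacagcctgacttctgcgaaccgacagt
Btg2, chr1:134079156-134079405, minus strand: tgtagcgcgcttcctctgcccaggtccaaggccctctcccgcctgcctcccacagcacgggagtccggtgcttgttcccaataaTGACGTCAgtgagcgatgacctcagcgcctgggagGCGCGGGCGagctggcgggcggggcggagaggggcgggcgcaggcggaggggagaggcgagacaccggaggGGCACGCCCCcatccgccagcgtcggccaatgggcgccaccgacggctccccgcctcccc
Zc3h12d, chr10:7832220-7832469, plus strand: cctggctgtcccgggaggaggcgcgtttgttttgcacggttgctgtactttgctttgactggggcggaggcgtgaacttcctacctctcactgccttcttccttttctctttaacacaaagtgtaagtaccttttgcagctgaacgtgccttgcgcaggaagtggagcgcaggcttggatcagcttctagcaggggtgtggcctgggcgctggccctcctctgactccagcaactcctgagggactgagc
*Zfp36* held 1 EGR match and *Btg2* held 1 CRE, 1 EGR and 1 NF-kB match. No match was found in *Zc3h12d* or *Zc3h12a*. Of the others, *Zfp36l1* and *Rc3h1* each held 1 AP-1 match, and *Rc3h2* and *Btg1* each held 1 NF-kB match. No NFAT letters were found in the 8 promoters. These are matches of letters in a short window and were not linked to binding.

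Among 11546 genes with a mean above 50 in at least 1 group, the genes whose log2 levels followed each regulator most closely over the 18 libraries were listed as a description. These libraries form separate clusters by treatment, so that shared group means carry most of the likeness, and the correlation of the deviations within groups is given beside it. *Zc3h12d* was most like *Socs5* (Pearson r = 0.958, within groups 0.886) and *Prkca* (0.956, within groups 0.807). *Zfp36l1* was most like *Gabpb1* (0.998, within groups 0.39) and *Tox4* (0.997, within groups 0.39), *Zc3h12a* most like *Sh2d2a* (0.995, within groups 0.56) and *Coq10b* (0.994, within groups 0.70), and *Rc3h1* most like *Prrc2c* (0.990, within groups 0.77) and *Rybp* (0.989, within groups 0.78). For *Zfp36* they were *mt-Atp8* (0.994, within groups 0.03) and *Sod1* (0.991, within groups 0.59), and for *Zfp36l2* *Mir142* (0.945, within groups 0.70) and *Cited2* (0.935, within groups 0.56). *Btg1* was most like *Nr1h2* (0.985, within groups 0.33) and *Gng5* (0.983, within groups 0.65), *Btg2* most like *Clk3* (0.990, within groups 0.56) and *Unc45a* (0.989, within groups 0.44). *Rc3h2* had the weakest likeness, with *Ttc14* (0.820, within groups 0.80) and *Ttc17* (0.808, within groups 0.16).

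The machinery that the regulators recruit was described from 42 further genes, comprising 15 deadenylase, 10 decapping and 5′ decay, 2 BTG/TOB, 2 Regnase, 7 other AU-rich element binding and 6 partner or protease genes. *Tob2* could not be assigned to a single identifier and was not used. For these genes only the main model is reported, without the alternatives given for the regulators. At rest, 1 of the 42 was higher and 14 were lower in tolerized cells, beside 8.42% and 12% of all genes, with a median log2 fold change of -0.12 beside -0.08 over all genes. All 7 of the called deadenylase genes were lower, such as *Cnot10* (-0.32, adjusted p = 0.00841). The largest called decrease was that of *Zc3h12b*, a further Regnase gene (-1.17, adjusted p = 0.013). The gene that was higher was *Malt1* (0.60, adjusted p = 0.000198), whose product is a protease that cleaves Regnase-1 and the Roquins. After Ag, 26 rose and 13 fell in naive cells (32.1% and 33.4% of all genes), with a median of 0.51 beside 0 over all genes. In tolerized cells 25 rose and 10 fell (29.9% and 29.8%), with a median of 0.48 beside -0.05. With PI, 19 rose and 15 fell in naive cells (28.6% and 32.7% of all genes), with a median of 0.05 beside -0.06. In tolerized cells 25 rose and 11 fell (32% and 36.3%), with a median of 0.40 beside -0.10. All 6 partner and protease genes rose in all 4 of these comparisons. They included *Malt1*, at 2.80 after Ag in naive cells (adjusted p = 6.88e-17) and 2.62 in tolerized cells (adjusted p = 3.48e-16), and *Mapkapk2*, the gene of the kinase MK2 that inactivates tristetraprolin, at 2.56 with PI in naive cells (adjusted p = 8.54e-17) and 3.30 in tolerized cells (adjusted p = 4.35e-19). *Btg3*, a relative of *Btg1* and *Btg2*, rose by 2.93 on the log2 scale after Ag in naive cells (adjusted p = 9.19e-18) and by 4.21 with PI in tolerized cells (adjusted p = 2.52e-20). With PI in naive cells, the largest called rises were those of *Zc3h12c*, another Regnase gene (4.36, adjusted p = 1.65e-06), *Btg3* (3.41, adjusted p = 2.02e-18) and *Tob1* (3.03, adjusted p = 2.65e-15), and in tolerized cells *Zc3h12c* rose by 3.89 (adjusted p = 2.07e-06).

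Between the cell states, 12 of the 42 were higher and 15 lower in TAg than in NAg (20.9% and 18.5% of all genes), with a median of -0.08 beside 0.01 over all genes. In TPI against NPI 17 were higher and 8 lower (18.2% and 19.7%), with a median of 0.16 beside -0.04. The largest called differences after PI were in *Malt1* (1.49, adjusted p = 1.24e-10) and *Mapkapk2* (0.99, adjusted p = 5.53e-09), both higher in TPI, and in *Xrn1*, the gene of the 5′ exonuclease, which was lower (-0.80, adjusted p = 5.07e-08). After Ag, *Xrn1* was higher in TAg (0.59, adjusted p = 5.3e-06) and *Btg3* lower (-0.75, adjusted p = 7.06e-07), while *Celf2*, which encodes another RNA-binding protein, was higher (0.60, adjusted p = 0.000667). For the PI response, 19 of the 42 differed upward and 2 downward in tolerized cells (12.7% and 7.52% of all genes), with 5 of the 6 partner and protease genes among those upward. For the Ag response these counts were 10 and 2 (14.6% and 7.09% of all genes), and the largest among those called were the differences of *Xrn1* (0.83, adjusted p = 1.17e-05), *Tia1* (0.54, adjusted p = 0.000406) and *Cnot11* (0.53, adjusted p = 0.039).

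The 12 known target transcripts were examined beside their regulators, in the main model only. Several of them are genes the study singled out on these samples, so that their directions are not independent evidence. All 12 rose with each stimulus in each cell state, with median log2 fold changes from 3.29 to 6.71 beside -0.10 to 0 over all genes, of which 28.6% to 32.1% rose. TAg was lower than NAg in 7 and higher in 4, beside 18.5% and 20.9% of all genes. TPI was higher than NPI in 6 and lower in none, beside 18.2% and 19.7%. *Tnf*, the classical target of tristetraprolin, had 2950, 2667 and 3395 normalized counts in NAg and 1489, 1165 and 1385 in TAg, a 2.23-fold lower level (log2 fold change -1.16, SE 0.15, adjusted p = 1.85e-05). With PI it had 13841, 16665 and 16967 in NPI and 12611, 13928 and 15596 in TPI, which did not pass the test (-0.17, SE 0.14, adjusted p = 0.395). *Il2* had 5024, 5268 and 3063 counts in NAg and 844, 517 and 788 in TAg, 6.20-fold lower (-2.63, SE 0.25, adjusted p = 2.95e-06), but 3878, 4870 and 4015 in NPI and 6227, 8577 and 10172 in TPI, 1.96-fold higher (0.97, SE 0.23, adjusted p = 0.0044). The NAg and TAg libraries of both genes did not overlap, whereas for *Tnf* the NPI and TPI libraries did.

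Targets of the Roquins and Regnases did not all follow *Tnf* and *Il2*. *Icos*, a costimulatory receptor and Roquin target, was 2.69-fold higher in TAg than in NAg (log2 fold change 1.43, SE 0.14, adjusted p = 7.84e-07) and 2.98-fold higher in TPI than in NPI (1.58, SE 0.14, adjusted p = 2.1e-07). *Tnfrsf4*, which encodes OX40, was 1.99-fold (0.99, SE 0.15, adjusted p = 7.12e-05) and 4.52-fold higher (2.18, SE 0.15, adjusted p = 2.24e-08). *Rel*, a Regnase-1 and Roquin target, was 2.50-fold lower in TAg than in NAg (-1.32, SE 0.09, adjusted p = 3.58e-11) and 1.56-fold higher in TPI than in NPI (0.64, SE 0.08, adjusted p = 1.67e-06), which are the signs that *Zc3h12a* and *Zfp36l1* also had. *Nfkbid* was 5.27-fold lower after Ag (-2.40, SE 0.10, adjusted p = 1.55e-14) and did not differ by the test after PI (0.06, SE 0.09, adjusted p = 0.663). *Il10*, whose 3′ UTR holds 4 heptamers, had 120, 82.2 and 45.1 counts in NAg against 3475, 3094 and 3719 in TAg, and 463, 582 and 535 in NPI against 22147, 12100 and 14645 in TPI. It was 41.9-fold (5.39, SE 0.30, adjusted p = 2.16e-08) and 31.0-fold higher in tolerized cells (4.95, SE 0.27, adjusted p = 1.04e-08). Transcripts with the heptamer were thus found among both the lower and the higher ones. For *Il3* and *Csf2*, no untreated library had more than 1 read, and no fold against rest is given. *Csf2* had 81.5, 29.4 and 24.2 normalized counts in NAg against 8.81, 1.19 and 12.3 in TAg, and 217, 298 and 223 in NPI against 234, 155 and 278 in TPI, so that the groups were apart after Ag and overlapped after PI.

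**Figure D5:**
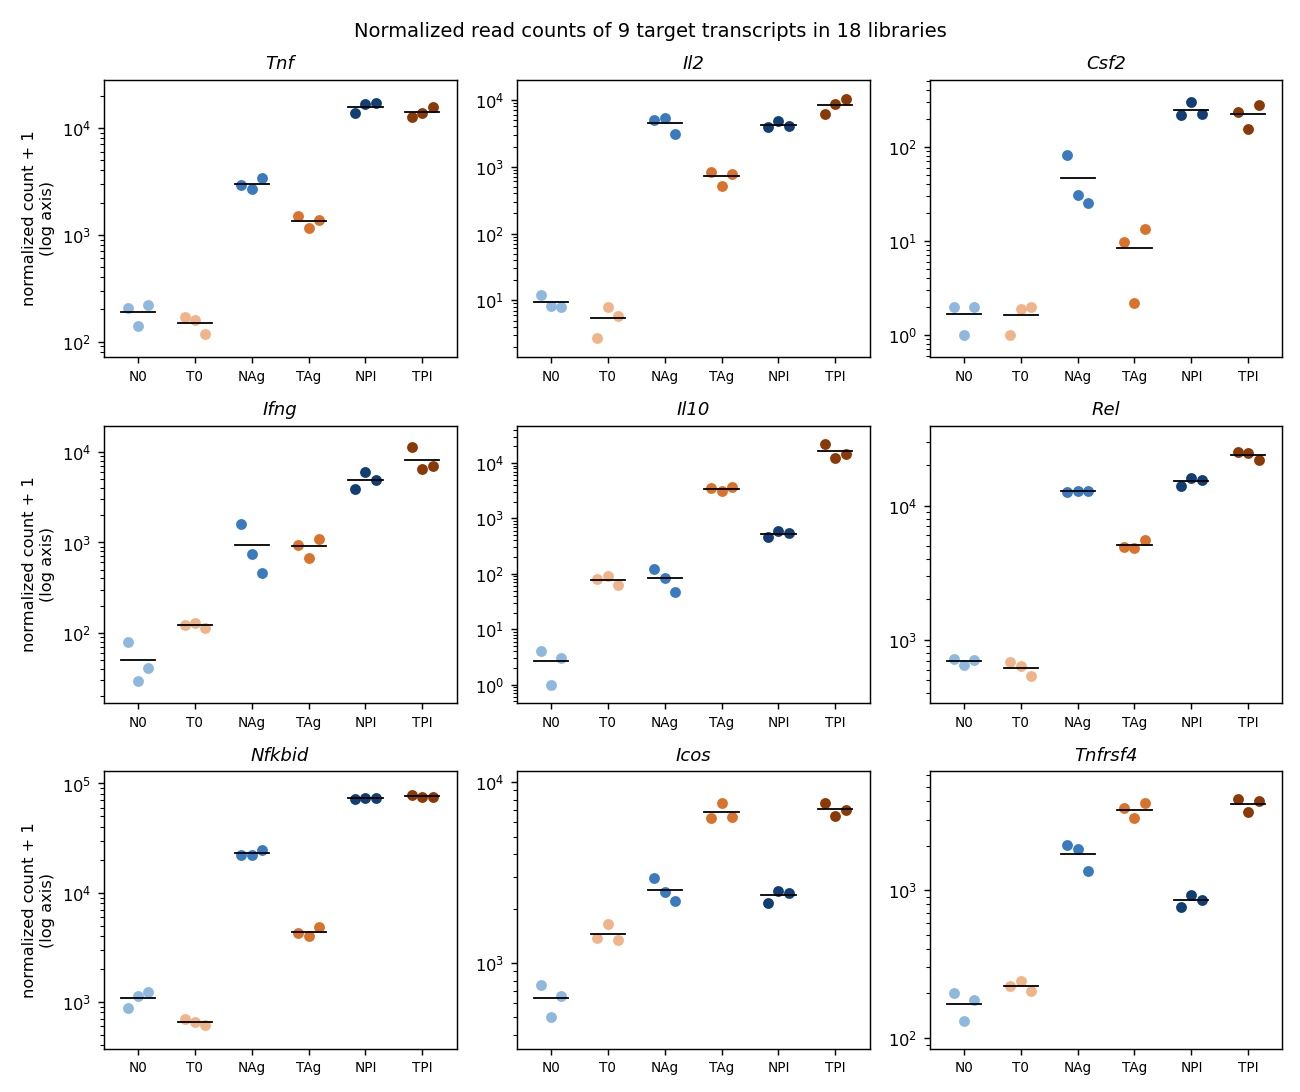
Normalized read counts plus 1 (log axis) of 9 of the 12 target transcripts in the 18 libraries; points are libraries and lines are means of 3 replicates, blue for naive and orange for tolerized groups. *Tnf*, *Il2*, *Rel* and *Nfkbid* are lower in TAg than in NAg, whereas *Il10*, *Icos* and *Tnfrsf4* are higher in TAg and in TPI than in their naive counterparts.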

How the data were processed

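Libraries were made by the authors from 30 ng of total RNA after removal of ribosomal RNA. The authors aligned reads to mm9 with TopHat2 2.1.1 and counted them per gene with HTSeq 0.9.1, and the deposited values are raw counts per Ensembl gene. The strand setting and overlap mode of the counting are not given in the sources used here. Groups were taken from the labels, with 3 libraries each. Here, genes whose mean normalized count reached 3 in any group were tested with the quasi-likelihood test of edgeR 4.0.16 (R 4.3.3, TMM scaling, robust fit), with 1 mean per group over all 18 libraries and Benjamini-Hochberg adjustment, and were called at an adjusted p under 0.05. The standard error is the size of the log2 fold change divided by the square root of its F statistic. All 9 regulators are named in every comparison, and of the other decay genes up to 3 with the largest called change in each. The members and lists were chosen with earlier results of these data known. Alternatives were DESeq2 1.42.0, its size factors, no filter, the 2-fold rule with a mean above 50, a replicate block, marker scores or sex as covariates, the compared groups alone, and each library left out. They are reported for the 9 regulators only. Values of the target transcripts and of the other decay genes come from the main model alone. The fit was also run on simulated counts with known changes. These held no outlying libraries and no differences in cell types, so that the run did not cover such cases. Same-numbered libraries of different groups did not deviate together (45 pairs, r from -0.229 to 0.135), so that the numbers were not taken to pair them.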

Additional observations from a re-analysis of the deposited data

Results flagged for a closer look

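The response to Ag differed between tolerized and naive cells, by the test of the difference itself, for 4 of the 9 regulators, beside 21.7% of all genes. On the log2 scale the difference was -0.41 for *Zfp36l1*, -0.68 for *Zc3h12a*, 1.28 for *Zc3h12d* and -0.69 for *Btg2*. The response to PI differed for 6 regulators, beside 20.2% of all genes. This difference was -0.57 for *Zfp36*, 0.96 for *Zfp36l1*, 0.84 for *Zc3h12a*, 1.55 for *Zc3h12d*, 0.30 for *Rc3h1* and 0.64 for *Rc3h2*. The difference of *Rc3h1* was not called without any 1 of 5 libraries, with marker scores or with sex as a covariate. That of *Zc3h12a* for PI was not called with marker scores (0.72, adjusted p = 0.0743). Of these 10, the differences of *Zfp36l1* and *Zc3h12a* had opposite signs for the 2 stimuli. The NAg and TAg cells were stimulated in mice and the NPI and TPI cells in culture, so that the agent and the setting cannot be told apart.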

How the results depend on the processing

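Under the rule that also asks for a 2-fold change and a mean above 50, the number of regulators called was 0 for T0 against N0, 1 for TAg against NAg, 1 for TPI against NPI, 2 for NAg against N0, 2 for TAg against T0, 1 for the Ag difference and 1 for the PI difference. With marker scores as covariates it was 0 for T0 against N0 and 1 for TAg against NAg. With sex as a covariate, or with the 2 groups alone, it was 2 for T0 against N0. Leaving out 1 library gave 2 to 5 calls for T0 against N0. The replicate block gave 3, 5, 5, 4, 8, 9, 9, 5 and 6 calls, in the order T0 against N0, TAg against NAg, TPI against NPI, NAg against N0, TAg against T0, NPI against N0, TPI against T0, Ag difference and PI difference, and moved no count by over 1.5 times. Fold changes of uncalled genes turned sign with marker scores for *Zc3h12a* in T0 against N0 (0.0301), for *Zfp36* (0.17), *Zfp36l2* (-0.31) and *Btg1* (-0.15) in TAg against NAg, and for *Btg1* in TPI against NPI (-0.10) and NAg against N0 (-0.0062). When 1 library was left out they spanned 0 for *Btg2* in T0 against N0 (-0.19 to 0.11), *Zfp36l2* in TAg against NAg (-0.0495 to 0.258), *Btg1* in TPI against NPI (-0.0228 to 0.0481) and NAg against N0 (-0.0019 to 0.15), *Rc3h2* in TAg against T0 (-0.0113 to 0.0746) and *Rc3h1* in the Ag difference (-0.0951 to 0.0276). No called fold change turned sign. The cause of these changes was not tested. With 3 libraries a group, and with untreated levels of *Zfp36l2* that spread widely, small differences at rest were the least certain.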
